A study of Rattus norvegicus with 9 samples.

Results

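The 8 genes described here code for junction, adhesion or other surface molecules of the epithelial cells of the gut lining. These genes are Epcam, Cldn3, Cldn7, Cdh17, Emb, Cd24, Ceacam1 and Ptprf. They were measured by all probe sets of the Affymetrix rat array whose only gene symbol in the platform annotation is one of these names, which gave 14 of the 8799 probe sets of the array for 8 of its 4737 named genes. The tissue was non-tumor proximal colon, mucosa together with smooth muscle, of male Sprague Dawley rats that had eaten 1 of 3 purified diets for life and had received azoxymethane (AOM), a chemical that causes colon tumors in rats. The diets differed in their protein, which was whey protein hydrolysate (WPH), soy protein isolate (SPI) or casein (CAS, the control diet). All rats, those on CAS included, were given AOM in 2 injections of 15 mg/kg from 90 days of age, and tissue was taken 40 weeks later. For each diet, RNA of 7 rats was combined into 1 pool of 8 µg, and 3 labelled targets were made from it in parallel and hybridized to 3 arrays. The spread between the arrays of a diet is therefore technical, and every p-value below compares pools and not rats.

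In an epithelium, neighbouring cells are sealed near their upper edge by tight junctions, whose strands are built of claudins, and are bound below these by cadherins. Epcam, an adhesion glycoprotein of nearly all simple epithelia, lies along the sides of the cells and is known to bind claudin-7 and to stabilize it. The colon carries all of these molecules in the cells that line crypts and surface, while the muscle and nerves of its wall lack most of them.

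Values are linear MAS 5.0 signals, which the authors brought to an average of 500 per array. A limma model of log2 signals was fitted to the 5606 probe sets that averaged 100 or more in any diet, and all 14 probe sets of the 8 genes were among them. Of the 14, 12 averaged 100 or more in every diet, a Cdh17 probe set (L46874_s_at) did so with SPI and CAS, and that of Ceacam1 entered the fit through SPI alone, the diet in which it was highest. A probe set was called changed at a Benjamini-Hochberg adjusted p under 0.05, and a stricter count also asks for a change of at least 2-fold. Folds are ratios of mean signals, while log2 changes are those of the fit. Across the 9 arrays, 58.6 to 60.2% of probe sets reached a signal of 100 and the median signal ran from 148.7 to 164.6, with overlapping ranges in the 3 diets. The arrays were grouped here into 3 fluidics rounds by clock times in the instrument settings, as no label names a batch. The date was not used, so that arrays run at like hours on different days would fall into the same round. All statements on rounds below rest on this grouping. The first held the 3 CAS arrays and WPH replicate 2. The second held WPH replicates 1 and 3 and SPI replicates 1 and 2, and the third SPI replicate 3 alone. A comparison within a round is therefore possible for WPH against CAS and for SPI against WPH, but not for SPI against CAS.

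Of the 8 genes, 7 had a promoter in the RefSeq table of rat promoters (build GRCr8), Cdh17 being the other one. The 250 bases before the start of transcription are printed for Epcam, Cldn3 and Cldn7, the genes of the lateral membrane and tight junction that differed most with WPH, and for Emb, which differed most with SPI. Capitals mark the letters GGGCGG (a GC box, which proteins of the Sp family bind) and CACCTG (the E-box that the Snail and Zeb repressors bind), on either strand, so that they also appear as CCGCCC and CAGGTG.
Epcam, chr6:12649679-12649928, minus strand: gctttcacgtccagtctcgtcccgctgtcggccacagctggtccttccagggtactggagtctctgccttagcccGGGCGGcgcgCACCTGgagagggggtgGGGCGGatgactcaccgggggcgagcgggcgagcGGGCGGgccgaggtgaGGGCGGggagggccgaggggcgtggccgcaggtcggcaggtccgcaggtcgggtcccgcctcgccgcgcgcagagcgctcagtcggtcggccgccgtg
Cldn3, chr12:27346548-27346797, minus strand: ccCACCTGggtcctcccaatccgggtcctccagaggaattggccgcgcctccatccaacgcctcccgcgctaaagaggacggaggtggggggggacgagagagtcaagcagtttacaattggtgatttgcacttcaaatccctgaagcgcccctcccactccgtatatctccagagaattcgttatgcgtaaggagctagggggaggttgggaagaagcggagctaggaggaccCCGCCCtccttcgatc
Cldn7, chr10:55188420-55188669, plus strand: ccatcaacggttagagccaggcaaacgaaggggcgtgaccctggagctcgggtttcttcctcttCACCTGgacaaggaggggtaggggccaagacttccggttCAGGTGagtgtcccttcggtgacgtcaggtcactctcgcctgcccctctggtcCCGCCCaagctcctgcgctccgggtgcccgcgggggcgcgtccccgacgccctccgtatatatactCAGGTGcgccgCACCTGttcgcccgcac
Emb, chr2:50803218-50803467, plus strand: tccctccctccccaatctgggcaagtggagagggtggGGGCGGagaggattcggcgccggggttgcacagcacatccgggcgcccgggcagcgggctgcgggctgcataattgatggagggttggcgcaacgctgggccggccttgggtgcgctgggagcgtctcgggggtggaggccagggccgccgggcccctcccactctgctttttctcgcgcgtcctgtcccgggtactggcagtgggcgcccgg

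Cldn7 held the E-box at 4 places, Ptprf at 2, and Epcam, Cldn3 and Cd24 at 1 each, while the windows of Emb and Ceacam1 held none. That is 5 of the 7 promoters, against 15.9% of all 33469 promoters of the table and 18.5% of the 10546 whose share of G and C lay in the range of the 7, 56.4 to 75.6%. The GC box was found in all of the 7 but Ceacam1, against 30.5% of all promoters and 65.2% of those in that range, and in Cd24 1 GC box overlapped the E-box. The TATA box (TATAAA), the site of the intestinal Cdx factors (TTTATNG) and the site of the grainyhead-like factors (AACCNGTT) were in none of the 7, against 12.9, 10.1 and 1.76% of all promoters and 3.62, 4.45 and 1.19% of those in that range of G and C. A match of letters is a description of the window and says nothing of what binds there in these rats.

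Transcripts of the adhesion genes were lower with WPH than with CAS for all but Ceacam1, mostly lay in between with SPI, and were higher with SPI than with WPH. With WPH, 13 of the 14 probe sets fell relative to CAS, where 17.9% of all 5606 probe sets did, and the same 13 did so by at least 2-fold, where 8.58% of all did. None rose with WPH, where 20.9% of all probe sets did. With SPI, 11 fell relative to CAS against 10.2% of all probe sets, but only 3 by at least 2-fold, against 3.35% of all. None rose with SPI, where 12% of all probe sets did. Between SPI and WPH, all 14 were higher with SPI against 10.1% of all probe sets, and 11 by at least 2-fold, against 4.5% of all. Without Ceacam1, which the SPI signals alone brought into the fit, these counts were 13 and 10 of 13. Every WPH array lay below every SPI array and every SPI array below every CAS array for 12 of the 14 probe sets, an order found for 5.82% of all probe sets. The median log2 change over the 8 genes, each by its brightest probe set, was -2.10 for WPH over CAS, -0.80 for SPI over CAS and 1.47 for SPI over WPH. Over all 5606 probe sets the medians were 0.06, -0.012 and -0.079. The study's own tables, which were chosen on these arrays, list most of these transcripts as lower with WPH, but only Emb as lower with SPI. The direction seen here is no independent support for those lists.

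**Figure D1:**
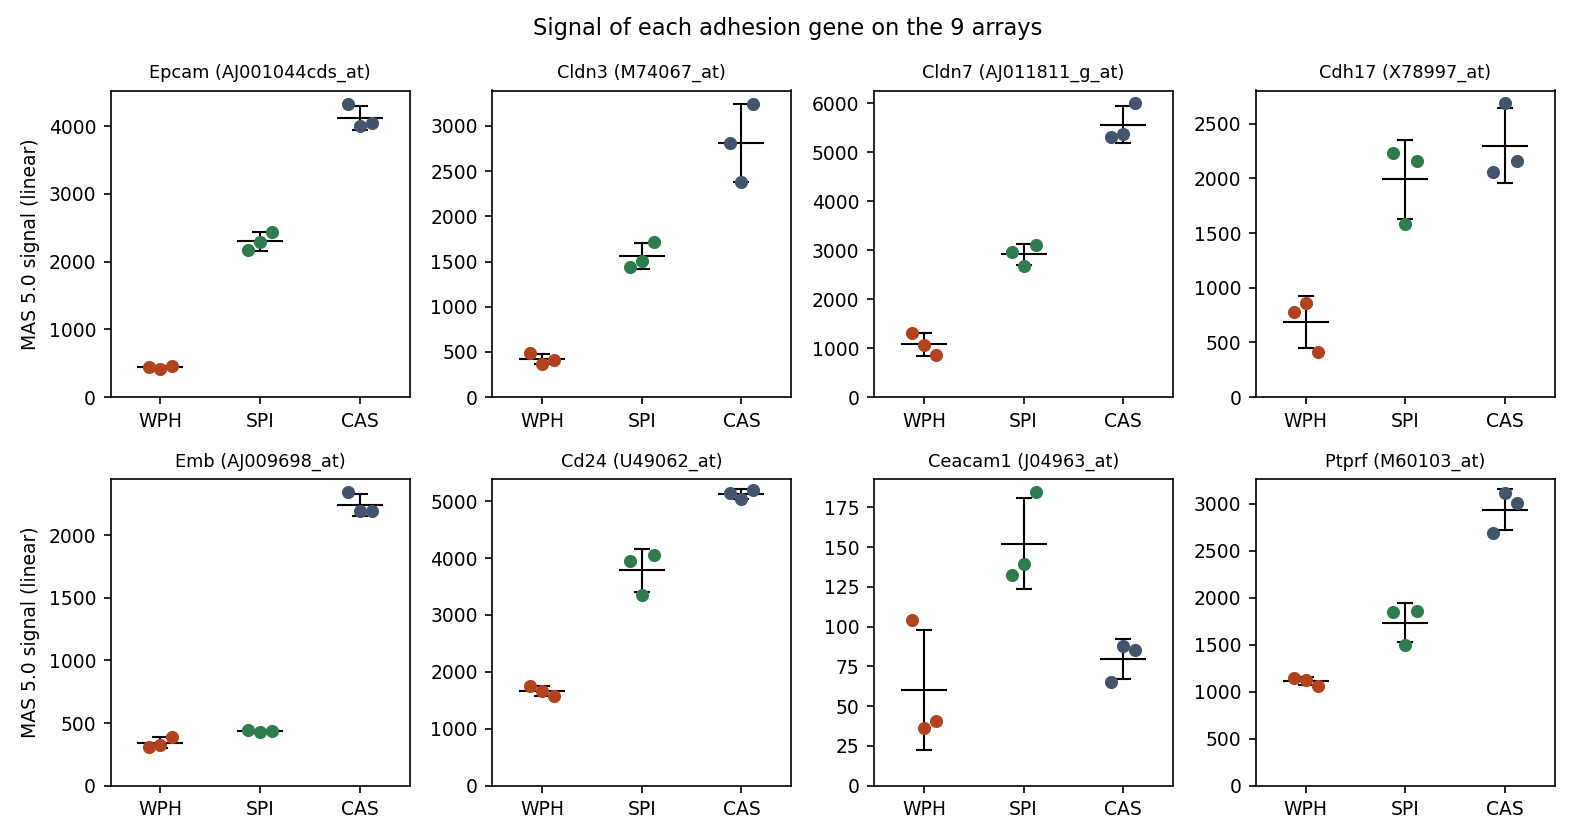
MAS 5.0 signals (vertical axis, linear, from 0) of the 8 adhesion genes on the 3 arrays of each diet (coloured points), with the mean and SD (black), for the brightest probe set of each gene. The 3 WPH arrays lie lowest for every gene but Ceacam1, and Emb with SPI, at 425.1 to 445.7, lies close to WPH, whereas Cdh17 with SPI overlaps CAS.

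Fluidics round bore differently on the 3 comparisons. Under a round block, WPH against CAS rests on 1 WPH array, replicate 2, against the 3 CAS arrays. SPI against WPH rests on the 2 arrays of each diet in the second round. With round as a block in the fit, the same 13 probe sets stayed lower with WPH (13.3% of all), and 11 stayed higher with SPI than with WPH (6.28% of all). For SPI against CAS, which share no round and are then compared only by way of WPH, 5 of the 14 stayed lower (2.71% of all): Epcam, both probe sets of Emb, and 1 probe set each of Cldn3 and Cldn7. The log2 changes of the brightest probe sets of Cldn7, Ptprf and Cd24, whose calls were lost, were not smaller under the block, at -0.99, -0.79 and -0.49.

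Epcam had signals of 442.7, 412.5 and 465.6 with WPH, 2168.8, 2283.5 and 2443.3 with SPI, and 4328.4, 4002.1 and 4042.5 with CAS (AJ001044cds_at). The 3 diets formed 3 separate steps, with arrays of a diet differing by far less than the diets. Epcam was 9.37-fold lower with WPH than with CAS (log2 change -3.23, SE 0.091, limma adjusted p = 2.81e-09), the 27th lowest change of the 5606 probe sets. With SPI it was 1.79-fold lower than with CAS (log2 change -0.84, adjusted p = 6.80e-05). SPI exceeded WPH by 5.22-fold (log2 change 2.38, adjusted p = 1.91e-08). In percent of the CAS mean, Epcam stood at 10.7 with WPH and 55.7 with SPI. Within the first fluidics round, the log2 change of WPH replicate 2 against the CAS arrays was -3.32, and within the second, that of SPI against WPH was 2.29.

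Both claudins, which form the strands of tight junctions, fell with WPH and with SPI. Cldn3, a claudin that tightens the seal between cells, gave signals of 483.1, 371.9 and 408.6 with WPH, 1441.2, 1510.4 and 1718.1 with SPI, and 2810.7, 2381.9 and 3248.5 with CAS (M74067_at). No array of one diet overlapped those of another, although the CAS arrays spread more widely than those of WPH. Cldn3 was 6.68-fold lower with WPH than with CAS (log2 change -2.74, SE 0.14, adjusted p = 9.04e-08) and 1.81-fold lower with SPI (log2 change -0.85, adjusted p = 0.00124). A further Cldn3 probe set (AJ011656cds_s_at) gave 343.5, 393.5 and 353.2 with WPH, 1092.9, 1303 and 1217.1 with SPI, and 3224.8, 2080.8 and 2923.8 with CAS. It showed the same order of diets, with folds of 7.55 for WPH and 2.28 for SPI against CAS. SPI was higher than WPH by 3.70-fold on M74067_at and by 3.31-fold on AJ011656cds_s_at (adjusted p = 3.24e-06 and 1.57e-05).

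Cldn7, the claudin that associates with Epcam and also lies along the sides of the cells, had signals of 1316.4, 1055.5 and 854.4 with WPH, 2965, 2681.1 and 3104.3 with SPI, and 5317.9, 5371.9 and 5999.6 with CAS (AJ011811_g_at). The groups again did not overlap. The study's table names this sequence claudin-9, while the platform annotation used here gives it the symbol Cldn7. Cldn7 was 5.17-fold lower with WPH than with CAS (log2 change -2.39, SE 0.14, adjusted p = 2.51e-07) and 1.91-fold lower with SPI (log2 change -0.93, adjusted p = 0.000714, or 0.0981 with fluidics round as a block). A probe set of the same sequence (AJ011811_at) gave 614.6, 627.7 and 645.7 with WPH, 1778, 1587.5 and 1680.2 with SPI, and 3156.6, 3229.9 and 3280 with CAS. Its folds against CAS, 5.12 with WPH and 1.92 with SPI, were nearly those of the first. The SPI signal was 2.71-fold that of WPH on AJ011811_g_at and 2.67-fold on AJ011811_at (adjusted p = 2.84e-05 and 6.22e-07).

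Cdh17, the liver-intestine cadherin, an adhesion molecule of enterocytes that works without the catenins, had signals of 782.9, 859.9 and 413.4 with WPH, 2236.2, 1580.6 and 2155.1 with SPI, and 2054, 2689.8 and 2155.6 with CAS (X78997_at). WPH lay below both other diets, while SPI and CAS overlapped. It was 3.36-fold lower with WPH than with CAS (log2 change -1.81, SE 0.25, adjusted p = 0.000138) and 2.90-fold higher with SPI than with WPH (adjusted p = 0.000952). For SPI against CAS the log2 change was -0.21 (SE 0.25, adjusted p = 0.599), and 0.32 with fluidics round as a block (adjusted p = 0.771), so that no direction was resolved. The other Cdh17 probe set (L46874_s_at) gave 75.1, 110.3 and 69.7 with WPH, 267.3, 197.8 and 257.1 with SPI, and 380.1, 535.9 and 308.9 with CAS. There SPI did not overlap CAS, but the log2 change of -0.74 (SE 0.25, adjusted p = 0.0530) missed the threshold, and both probe sets fell with WPH. On L46874_s_at that log2 change was -2.26 (SE 0.25, adjusted p = 2.54e-05), with 2 of the 3 WPH signals under 100.

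Emb, or embigin, is a glycoprotein of the immunoglobulin family that accompanies monocarboxylate transporters to the membrane. Its signals were 310.4, 321.3 and 390.7 with WPH, 445.7, 425.1 and 439.3 with SPI, and 2344.5, 2189.2 and 2187.7 with CAS (AJ009698_at). Both diets lay far below CAS and close to each other. Relative to CAS, Emb fell by 6.57-fold in the WPH pool (log2 change -2.72, SE 0.11, adjusted p = 2.62e-08) and by 5.13-fold in the SPI pool (log2 change -2.36, SE 0.11, adjusted p = 1.24e-07). On the second probe set (AJ009698_g_at) the signals were 143.7, 117.7 and 166.3 with WPH, 198.5, 215.4 and 305.5 with SPI, and 1186.8, 1292.6 and 1063.6 with CAS, 8.28-fold and 4.92-fold lower than CAS. SPI stood at 19.5% of the CAS mean on AJ009698_at. By their brightest probe sets, the other genes with lower signals stood between 52.4% for Cldn7 and 86.6% for Cdh17. On their other probe sets the lowest was 43.9%, for Cldn3. The SPI change of Emb was the 33rd lowest of all 5606, whereas that of Epcam was the 312th lowest. That Emb differed from the other genes in this was not tested. Between SPI and WPH, Emb had a log2 change of 0.36 (SE 0.11, adjusted p = 0.0415) on AJ009698_at and of 0.74 (SE 0.19, adjusted p = 0.0177), or 1.68-fold, on AJ009698_g_at. The call on AJ009698_at was lost with fluidics round as a block (adjusted p = 0.226) and without any 1 of the 3 SPI arrays or of WPH replicates 1 and 2 (adjusted p between 0.0597 and 0.121).

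Cd24, a small and heavily glycosylated protein on a lipid anchor that is a ligand of P-selectin, was measured by 3 probe sets. On U49062_at the signals were 1752.1, 1663.6 and 1575.9 with WPH, 3947.5, 3351.3 and 4053.3 with SPI, and 5141.9, 5033.8 and 5196.4 with CAS. Each diet formed a tight group apart from the others. Cd24 was 3.08-fold lower with WPH than with CAS (log2 change -1.62, SE 0.091, adjusted p = 2.06e-07) and 1.35-fold lower with SPI (log2 change -0.44, adjusted p = 0.00501, or 0.175 with fluidics round as a block). SPI was 2.27-fold higher than WPH (adjusted p = 4.81e-06). The signals of U49062_g_at were 1252.6, 1040.7 and 1072.1 with WPH, 2754.6, 2356.7 and 2694.8 with SPI, and 3721, 3718.8 and 3836.9 with CAS, 3.35-fold and 1.44-fold lower than CAS. On rc_AI171462_s_at they were 552.4, 643.5 and 518.7 with WPH, 1184.9, 1336.4 and 1235.4 with SPI, and 2871.4, 2304.5 and 2277.4 with CAS, 4.35-fold and 1.98-fold lower than CAS. All 3 probe sets thus had the same order of diets, with a larger fold on the last than on the pair from U49062.

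Ptprf (LAR), a receptor tyrosine phosphatase found at cell junctions, had signals of 1150.5, 1126.4 and 1063.8 with WPH, 1846.6, 1499.2 and 1859.9 with SPI, and 2690.7, 3116.5 and 3009.6 with CAS (M60103_at). The 3 diets did not overlap. Ptprf was 2.64-fold lower with WPH than with CAS (log2 change -1.40, SE 0.11, adjusted p = 1.71e-06) and 1.69-fold lower with SPI (log2 change -0.76, adjusted p = 0.000448, or 0.0787 with fluidics round as a block). SPI exceeded WPH by 1.56-fold (log2 change 0.63, adjusted p = 0.00173), and within the second fluidics round by 1.51-fold.

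Ceacam1, an adhesion molecule of the carcinoembryonic antigen family, was the exception, and its signals were low. They were 103.9, 36.4 and 40.7 with WPH, 132.5, 139.4 and 184.7 with SPI, and 65.1, 87.9 and 85.3 with CAS (J04963_at). WPH overlapped CAS, while every SPI array lay above every array of both other diets. The log2 change of WPH against CAS was -0.55 (SE 0.40, adjusted p = 0.301), and no fold is given because nearly all of these signals were under 100. WPH replicate 1, at 103.9, decided this value, since without it the log2 change was -1.03 (adjusted p = 0.0284). All CAS signals were under 100, so that SPI was at least 1.52-fold higher than CAS with these signals set to 100, and the fit gave a log2 change of 0.94 (SE 0.40, adjusted p = 0.123). With fluidics round as a block that change was -0.050 (adjusted p = 0.983), so that its direction was not resolved. Against WPH, of which 2 of 3 signals were also under 100, SPI had a log2 change of 1.49 (SE 0.40, adjusted p = 0.0219). Because this probe set entered the fit only through SPI, that call is given as a value and supports nothing, and it was lost with fluidics round as a block (adjusted p = 0.199) and without SPI replicate 1 or 3 or WPH replicate 2 or 3 (adjusted p between 0.0502 and 0.0887). A probe set shared by Ceacam1 and Ceacam4 (U23055cds_s_at), outside the 14, gave 52.4, 154.5 and 49.7 with WPH, 47.4, 34.1 and 83 with SPI, and 136.2, 132.6 and 183.7 with CAS. Its order of diets was not that of J04963_at, and since 2 genes share it, the signal cannot be assigned to either. Its means were 85.5 with WPH, 54.8 with SPI and 150.8 with CAS. Ceacam4 by its own probe set (U23056_at) had the same order, with means of 246.3, 190.4 and 341.8. It was called lower than CAS with WPH and with SPI (limma adjusted p = 0.0204 and 0.00159). The part of each gene in the shared signal was not tested.

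**Figure D2:**
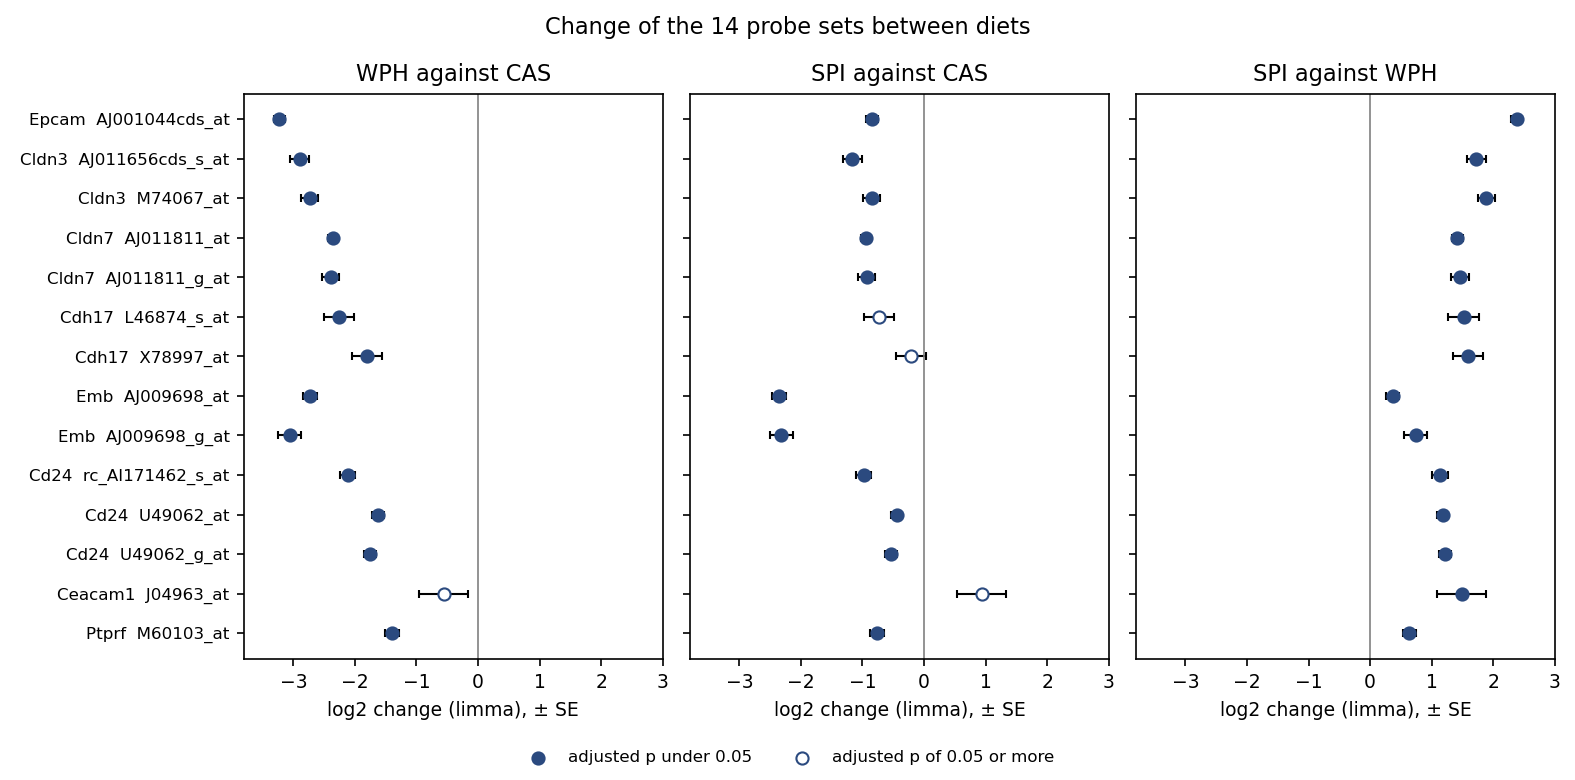
Log2 change (horizontal axis, limma fit, with bars of 1 SE) of each of the 14 probe sets in the 3 comparisons of diets. Filled points have an adjusted p under 0.05. Most probe sets of a gene lie near each other, but those of Cd24 range from -0.44 to -0.98 and those of Cdh17 from -0.21 to -0.74 for SPI against CAS. Emb stands at -2.36 and -2.32 in that comparison, and Ceacam1 is the only gene on the positive side.

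Over the 9 arrays, the genes most alike among the 8 were Cd24 and Ptprf and the 2 claudins. Likeness was the root mean square difference of log2 signals over the 9 arrays, with the mean of each probe set taken off. A value of 0 would mean the same profile, and it is given as a description. It is not scaled, so that genes that vary little can lie close for that reason. The root mean square around a gene's own mean was 0.58 for Ptprf and 0.69 for Cd24, but 1.21 for Emb and 1.37 for Epcam. The difference was 0.23 between Cd24 and Ptprf, 0.24 between Cldn3 and Cldn7, 0.27 between Epcam and Cldn3, and 0.32 between Cdh17 and Cd24. Emb and Ceacam1 were the farthest apart, at 1.45, and the gene nearest to Emb among the other 7 was Cldn7, at 0.65. Among 2705 genes with 1 symbol that averaged 200 or more in any diet (2706 for Ceacam1), those nearest to Epcam were Slc9a3, the sodium and proton exchanger of the brush border, at 0.19, and Ms4a8, at 0.20. Nearest to Cldn3 were Tmem171 at 0.18 and Foxa3, a transcription factor of gut and liver, at 0.20, and nearest to Cldn7 were Krt20, a keratin of differentiated colon cells, at 0.15, and Zg16, a lectin of goblet cells, at 0.17. For Cdh17 they were Guca2b (uroguanylin), at 0.25, and Calml4, a light chain of brush border myosin, at 0.26.
The genes nearest to Cd24 were Pld1, a phospholipase, at 0.11, and Padi4, which changes arginine to citrulline in proteins, at 0.13. The closest matches of all belonged to Ptprf, with Chgb (chromogranin B), a granule protein of endocrine cells, at 0.077, and Tor1aip2 at 0.079. Emb was nearest to Cyp4f4, a cytochrome P450, at 0.26, and Psat1, an enzyme of serine synthesis, at 0.27. Their means were 64.7 and 266.3 with WPH, 63.8 and 328.0 with SPI, and 415.7 and 1325.1 with CAS. As both were picked for their likeness to Emb on these arrays, their low SPI signals follow from that choice. Cyp4f4 entered the fit through CAS alone. Ceacam1 had the least close matches, Il33, a cytokine, at 0.29 and Ripk3, a kinase of cell death, at 0.36.

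Other measured genes of junctions moved in both directions or did not pass the test. Over all 5606 probe sets, 17.9% fell and 20.9% rose with WPH, and 10.2% fell and 12% rose with SPI. With few genes in each list, the counts of this and the next 3 paragraphs are not read as results about the lists. Of the tight junction list, 6 of 27 genes were tested, and with WPH 3 fell and 1 rose relative to CAS (median log2 change -1.21), while with SPI 2 fell and 1 rose (-0.39). Leaving out the 2 claudins, 1 of 4 fell and 1 rose with WPH, with a median of -0.014. The 1 that fell was Ocln (occludin), a membrane protein of tight junctions, with means of 142.4 ± 27.0 with WPH, 376.4 ± 65.1 with SPI and 615.3 ± 264.7 with CAS (SD, n = 3 arrays each). It was 4.32-fold lower with WPH than with CAS (adjusted p = 0.000102), and for SPI its log2 change of -0.64 (adjusted p = 0.117) missed the threshold. Pard3, a polarity protein, rose with WPH (log2 change 0.85, adjusted p = 0.00162) and with SPI (0.58, adjusted p = 0.0270), at low signals. Tjp1 (ZO-1), the scaffold under the junction, had means of 1650.0 with WPH, 1449.9 with SPI and 1299 with CAS (adjusted p = 0.101 and 0.565 for WPH and SPI against CAS).

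Of 26 listed cadherins, catenins and nectins, 10 had a probe set with 1 symbol and 7 were tested. Cdh1 (E-cadherin) and Ctnnb1 (beta-catenin) were not among the 10. Of the 7, Cdh17 alone fell with WPH, and Cdh22 rose by 1.38-fold (adjusted p = 0.0259). The median log2 change over the 7 was -0.20 for WPH and -0.095 for SPI. With SPI the 1 called lower was Cdh16, the kidney cadherin, chosen for naming after its value was seen. Its means were 77.9 with WPH, 42.5 with SPI and 132.2 with CAS (adjusted p = 0.0119 for SPI against CAS), and as it entered the fit through CAS alone, nothing is read from that call. Jup (plakoglobin), which links cadherins to the cytoskeleton, gave log2 changes of -0.072 for WPH and 0.16 for SPI (adjusted p = 0.739 and 0.509). In the list of desmosomes and hemidesmosomes, 4 of 19 genes were tested, with no desmoglein, desmocollin or desmoplakin among them. Of the 4, 1 fell with WPH and none was called with SPI. It was Itgb4, the integrin chain that anchors epithelial cells to the basement membrane, with means of 672.5 ± 72.5 with WPH, 995.9 ± 28.4 with SPI and 1066.4 ± 190.3 with CAS (n = 3 each), 1.59-fold lower with WPH (adjusted p = 0.00233). The integrins, which include Itgb4, had 1 lower and 2 higher of 6 with WPH, and 2 higher with SPI. Itgb1, the integrin chain that most cells use to hold on to matrix, rose with both diets, by 1.79-fold for WPH and 1.43-fold for SPI (adjusted p = 4.45e-06 and 0.000511), and Itga7, the laminin receptor of muscle, rose by 1.74-fold with WPH (adjusted p = 0.000196). Of 6 connexins, the channel proteins of gap junctions, 2 fell with WPH and none changed with SPI. They were Gjb1, 1.61-fold lower (adjusted p = 0.0227), and Gjb2, chosen for naming after its value was seen, whose means were 47 with WPH, 173.9 with SPI and 161.7 with CAS (log2 change of WPH against CAS -1.85, adjusted p = 0.000490).

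The families of Emb, Ceacam1 and Ptprf held genes called in either direction. Of 16 immunoglobulin family genes tested, 2 fell and 6 rose with WPH (median log2 change 0.46), where 17.9% of all probe sets fell and 20.9% rose. With SPI, 2 fell and 1 rose (median 0.060), where 10.2 and 12% of all probe sets did. Without Emb and Ceacam1, 1 of 14 fell and 6 rose with WPH, and 1 fell and 1 rose with SPI. Those that rose included Thy1, a surface protein of nerves and fibroblasts, 3.19-fold with WPH (adjusted p = 0.00126), L1cam, an adhesion molecule of axons, 1.73-fold with WPH (adjusted p = 0.00698), and Vcam1, to which leukocytes attach, 2.02-fold for WPH and 1.80-fold for SPI (adjusted p = 0.000131 and 0.00111). Bsg (basigin), which like Emb accompanies monocarboxylate transporters, had means of 3590.7 with WPH, 3561.8 with SPI and 4526.7 with CAS (adjusted p = 0.305 and 0.346 for WPH and SPI against CAS). Of 11 receptor tyrosine phosphatases, 2 fell and 4 rose with each diet, with medians of 0.25 with WPH and 0.20 with SPI. The part that fell with WPH lay near the 17.9% of all probe sets. Without Ptprf, 1 of 10 fell and 4 rose with each diet. Besides Ptprf, the 1 that fell was Ptprh (SAP-1), a phosphatase of the microvilli of gut epithelium. Its means were 121.4 ± 38.5 with WPH, 376.5 ± 28.2 with SPI and 778.5 ± 158.5 with CAS (n = 3 each), so that WPH and SPI were 6.41-fold and 2.07-fold below CAS (adjusted p = 3.29e-06 and 0.00726). Ptprs, a close relative of Ptprf, rose by 2.47-fold for WPH and 1.65-fold for SPI (adjusted p = 3.90e-05 and 0.00496), and Ptprn, of secretory granules in neurons and endocrine cells, by 2.40-fold and 1.47-fold (adjusted p = 1.10e-05 and 0.00816).

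Among the partners of Epcam and Cd24, mostly tetraspanins, 4 of 12 fell and 6 rose with WPH (median log2 change 0.15), and 3 fell and 2 rose with SPI (0.19). The members that fell with WPH besides Epcam and Cd24 were Tspan8, which is known to associate with Epcam in rat tumor cells, and Cd82. Tspan8 had means of 2436.2 ± 396.9 with WPH, 7031.7 ± 624.0 with SPI and 8111.8 ± 283.4 with CAS (n = 3 each). It was 3.33-fold lower with WPH than with CAS (adjusted p = 7.45e-07), while SPI had a log2 change of -0.21 against CAS (adjusted p = 0.251), as Cdh17 had on its first probe set. Cd53, a tetraspanin of leukocytes, rose by 1.84-fold for WPH and 1.75-fold for SPI (adjusted p = 0.00348 and 0.0110), and Cd9, chosen for naming after its value was seen, changed by 0.74 on the log2 scale with WPH (adjusted p = 0.000472).

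**Figure D3:**
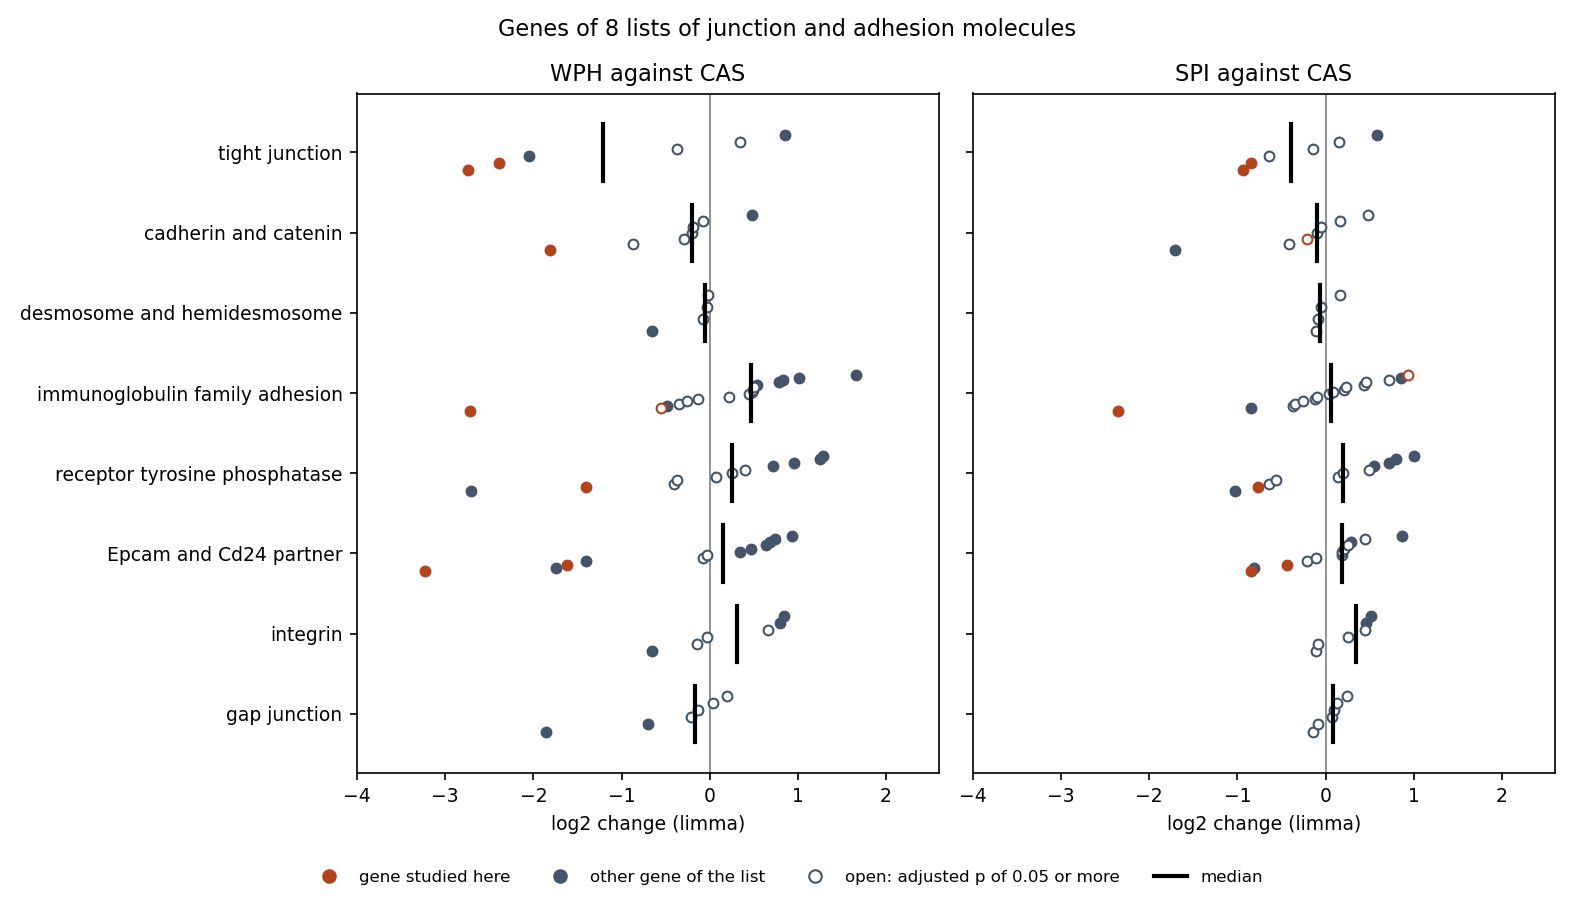
Log2 change (horizontal axis, limma fit) of the tested genes of 8 lists of junction and adhesion molecules, for WPH against CAS and SPI against CAS. Each point is a gene, filled at an adjusted p under 0.05, red for the genes described here, and bars mark medians. The red points of WPH lie at -1.40 or lower except for Ceacam1, at -0.55, while the median of the immunoglobulin family is 0.46.

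Markers of epithelium at large moved with the adhesion genes, and markers of muscle and nerve moved the other way. Of 23 epithelial markers tested, of 27 listed, 21 fell with WPH and none rose, and 15 fell with SPI and none rose, with median log2 changes of -2.06 and -0.77. Their summed signal ran from 24979 to 26976 with WPH, from 53349 to 56256 with SPI and from 90500 to 95536 with CAS, and none of them was under 100 in all diets. Muc2, the main mucin of goblet cells, had log2 changes of -3.61 for WPH and -1.60 for SPI, and Muc3, a mucin of the cell membrane, of -3.47 and -1.83. Smooth muscle markers were higher for 9 of 10 genes with each diet, with a summed signal of 227595 to 258267 with WPH, 170009 to 173456 with SPI and 119078 to 121408 with CAS. Markers of neurons and glia were higher for 14 of 14 genes with WPH and 9 of 14 with SPI, with sums of 15347 to 17277 with WPH, 9122 to 10574 with SPI and 5972 to 6361 with CAS. Among these, Sox10 entered the fit through WPH alone, with means of 188.9 with WPH, 88.8 with SPI and 56.0 with CAS. Cdx1 of the epithelial list entered through CAS alone, at 38.2, 79.8 and 302.6. Both are included in the counts, but nothing is read from their calls. Fibroblast markers rose for 13 of 14 genes with WPH and 11 of 14 with SPI, leukocyte markers for 9 and 6 of 15, and endothelial ones for 1 of 4 with each diet. Sparc, a matrix protein on the fibroblast list, fell with SPI (log2 change -0.43, adjusted p = 0.0443), and Cd14, a receptor of monocytes on the leukocyte list, fell with WPH and with SPI (-1.04 and -0.78, adjusted p = 0.000249 and 0.00359). In samples of the whole colon wall, fewer epithelial cells and less RNA per epithelial cell cannot be told apart, and the part of either in the changes of the adhesion genes was not tested.

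Set among the 23 epithelial markers, most adhesion genes lay inside their range. The 23 include Cdx1, which entered the fit through CAS alone. With WPH, whose marker changes ran from -3.61 to 0.15 on the log2 scale, 2 markers fell further than Epcam, 6 further than Cldn3 and Emb, 7 further than Cldn7, 14 further than Cdh17 and Cd24, 17 further than Ptprf and 20 further than Ceacam1. With SPI the range was -2.14 to 0.11, and the order differed. No marker had a lower change than Emb, at -2.36, and all 23 had a lower one than Ceacam1, at 0.94. In between, 9 markers were lower than Cldn7, 11 lower than Epcam and Cldn3, 12 lower than Ptprf, 15 lower than Cd24 and 16 lower than Cdh17. Lgals4 (galectin-4), an epithelial marker, fell with WPH only by a log2 change of 0.53 (adjusted p = 9.15e-05) and had 0.10 with SPI (adjusted p = 0.349), and Anpep, a peptidase of the brush border, had 0.15 and 0.11 (adjusted p = 0.372 and 0.582).

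**Figure D4:**
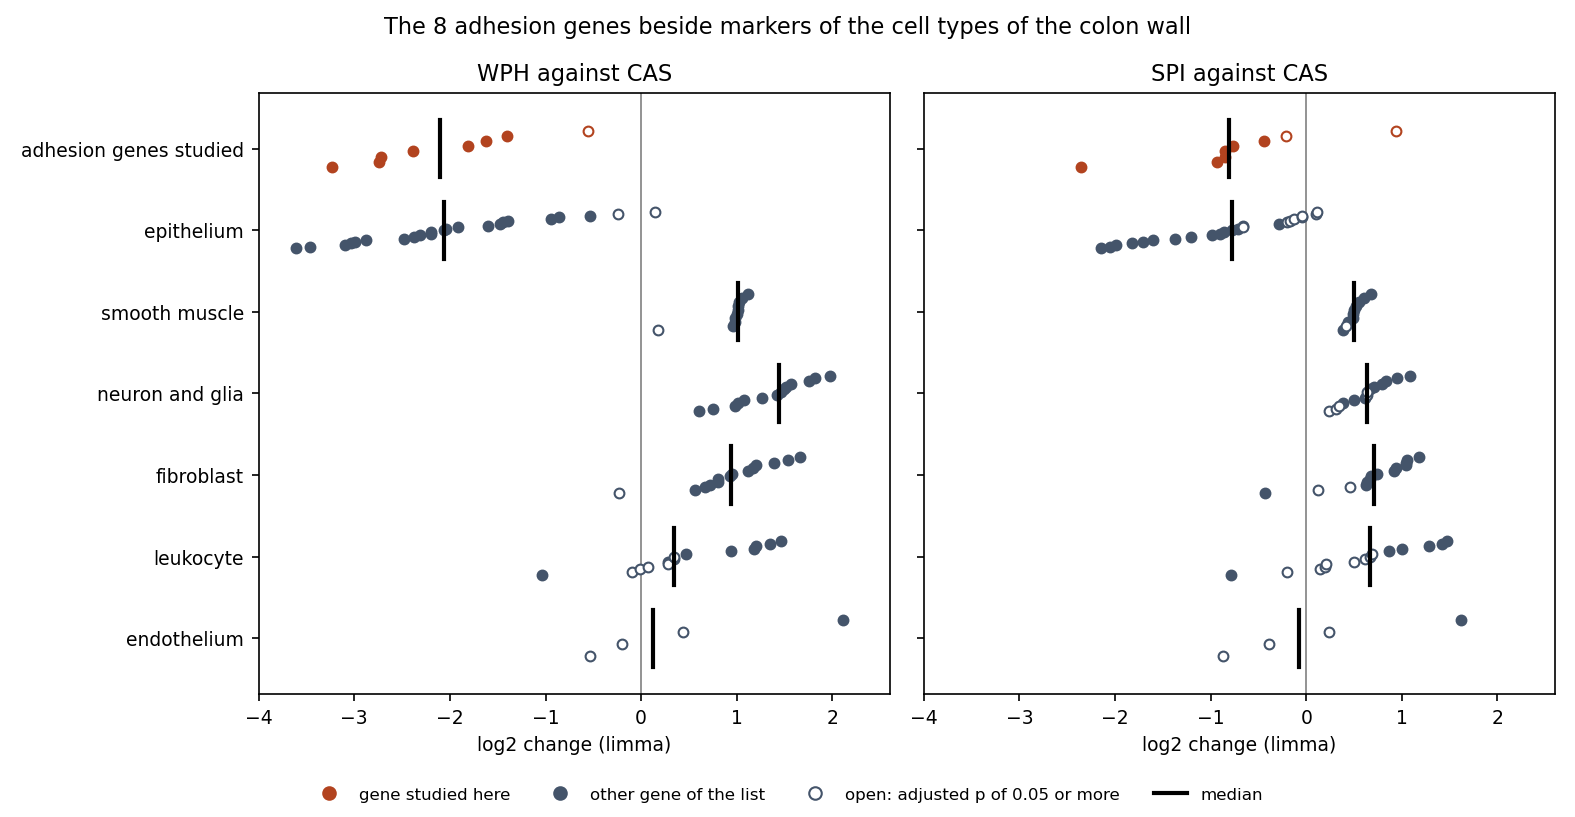
Log2 change (horizontal axis, limma fit) of the 8 adhesion genes (red) and of marker genes of the cell types of the colon wall, for WPH against CAS and SPI against CAS. Filled points have an adjusted p under 0.05 and bars mark medians. The medians of the adhesion genes, -2.10 with WPH and -0.80 with SPI, lie near those of the epithelial markers, -2.06 and -0.77, while the medians of muscle, nerve and fibroblast markers lie on the positive side.

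A measure of the RNA target also followed the diets. The beta-actin signal at the 3' end of the transcript, divided by that at the 5' end, ran from 2.53 to 3.50 on the WPH arrays, from 2.14 to 2.36 on the SPI arrays and from 1.83 to 1.88 on the CAS arrays. The same ratio for glyceraldehyde-3-phosphate dehydrogenase overlapped between diets, at 1.57 to 1.70 with WPH, 1.48 to 1.65 with SPI and 1.34 to 1.71 with CAS. The part of the target's length in the changes of the adhesion genes was not tested. The median coefficient of variation of the 8 genes was 13.1% with WPH, 9.63% with SPI and 7.17% with CAS. Over all probe sets tested it was 13.0, 12.1 and 11.4%. Arrays thus agreed about as well for the 8 genes as for other transcripts with WPH, and more closely with SPI and CAS. The comparison was not matched for signal. The widest was that of Ceacam1 with WPH, at 62.6%.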

How the data were processed

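Per the labels and the study's methods, 9 Affymetrix rat arrays were used, 3 for each of WPH, SPI and CAS, with 3 parallel targets of a pool from 7 rats. The deposited intensity values were computed by the authors in MAS 5.0 with a scaling target of 500, and no detection calls were used here. Instrument settings of other units were deposited too, and were read only for the clock time of each array's fluidics run. A gap between these times was taken as the start of a new round, and the date was not used.

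Signals under 0.1 were set to 0.1 and changed to log2 with no further normalization. Without the 59 Affymetrix controls 8740 probe sets remained, of which 5606 averaged 100 or more in any diet. They were fitted with limma 3.58.1 (R 4.3.3, lmFit and eBayes with a trend), 1 mean per diet, and p-values were adjusted over all 5606. A fold is a lower bound where all arrays of a diet were under 100, with each such signal set to 100. Precision is limited by 3 arrays per diet. The scripts were tested on simulated data. Python 3.11.15 with numpy 2.4.6, pandas 2.3.3 and matplotlib 3.10.9 served for descriptions and figures.

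The platform annotation assigned 1 symbol to 7018 probe sets, several to 308 and none to 1473. A gene is represented by its brightest probe set (mean log2 over the 9 arrays). By rule, all probe sets of the 8 genes were named, with the 2 nearest genes of each and up to 4 genes of each list, those changed most with WPH. Members and lists were chosen with earlier results of these data known, and genes named outside the rule (Gjb2, Cdh16, Cd9, Cd82, Tjp1, Jup, Bsg, Ceacam4, Sox10, Sparc, Cd14, Lgals4 and Anpep) were chosen after their values were seen. Sequences are those of RefSeq (GRCr8). The build behind the array's probes is not given in the sources used here.

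The alternatives were a floor of 50, a pseudocount of 32 in place of the floor, no filter or a filter at 200, median centring, quantile normalization, a fit without the trend or with 2 diets at a time, replicate number or fluidics round as a block, the methods' t-test, a 2-fold minimum, other probe sets, values within a round, and leaving out each array in turn. The t-test without adjustment was added after seeing the data.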

Additional observations from a re-analysis of the deposited data

How the results depend on the processing

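The count of 13 of 14 probe sets lower with WPH than with CAS was 13 under every alternative tried other than leaving out arrays, and 13 to 14 when single arrays were left out. For SPI against CAS, 11 were lower, and 5 with fluidics round as a block, 3 with the 2-fold minimum, 9 by the methods' t-test after adjustment (11 without it), and 11 to 12 without single arrays. For SPI against WPH, 14 were higher, 9 by the methods' t-test after adjustment (13 without it), and 11 to 13 without single arrays. The cause of the drops under the t-test was not tested. With fluidics round as a block, SPI against CAS rests on WPH arrays alone for its link, and the log2 change turned to 0.32 for Cdh17 and to -0.050 for Ceacam1, neither of them called before or after. Under that block, 39.7% of all calls for SPI against CAS were increases, against 54.1% without it, and 62.9% against 50.6% for SPI against WPH. For single genes, 131 of 132 other tested values for WPH against CAS, 127 of 133 for SPI against CAS and 117 of 133 for SPI against WPH kept direction and side of the threshold. Within a fluidics round, 8 of 8 values for WPH against CAS and 8 of 8 for SPI against WPH kept direction. These values give no test here and are the same log2 changes as under the round block, so they are no further check. Arrays of the same replicate number did not deviate together, since the correlation of their deviations ran from -0.28 to 0.24 over 9 pairs and exceeded 0.1 in 1. With the replicate number as a block, the counts were 13, 11 and 13 of 14. Signals near 100, as for Ceacam1, limit what these arrays resolve.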
